A study of Mus musculus with 13 samples.

Results

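The interaction of a drug with an injury is the part of the drug's effect that differs between injured and uninjured tissue. Here the drug was dmPGE2 (16,16-dimethyl prostaglandin E2), a prostaglandin E2 analogue that resists breakdown. The injury was D-galactosamine with lipopolysaccharide (GalN/LPS), a mouse model of acute liver failure. For every gene the effect of dmPGE2 in livers given GalN/LPS, less its effect in livers without injury, was tested as (dmPGE2 then GalN/LPS minus GalN/LPS) minus (dmPGE2 minus saline). All 13 libraries of the series entered the fit, and 14280 of the 54532 genes in the count table passed the filter on low counts and were tested. All mice were wild-type C57 BL6, aged 8 weeks. There were 3 libraries from saline livers, 3 from livers given 300 µg/kg dmPGE2 alone, and 3 from livers of mice injected intraperitoneally with 500 mg/kg D-galactosamine and 5 µg/kg lipopolysaccharide. Another 4 came from livers given the same dose of dmPGE2 1 h before the same GalN/LPS, called pretreated here. Livers were taken 6 h after injection. For dmPGE2 alone the labels record no separate interval from dmPGE2 to collection, so a difference in the time after dmPGE2 cannot be told apart from the interaction. Nothing in the labels states that the libraries of a group are different mice, so the p-values rest on a spread between libraries that may be technical, and livers counted below are libraries.

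As background, galactosamine traps uridine nucleotides in hepatocytes and lowers their transcription, and lipopolysaccharide makes Kupffer cells and other leukocytes release tumor necrosis factor and interleukins. Prostaglandin E2 acts on the receptors encoded by Ptger1 to Ptger4. Those of Ptger2 and Ptger4 raise cyclic AMP, which in macrophages can dampen NF-kB-driven cytokine transcription. A gene that dmPGE2 changes to the same extent with and without injury has an interaction of 0, as has a gene it changes in neither.

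Total counts per library lay between 14829838 and 20777809. Albumin and the other hepatocyte markers were the most abundant of the cell type marker lists in every library, with a summed level from 71967 to 230390 CPM (counts scaled to one library size). Levels are CPM scaled by the trimmed mean of M-values (TMM), whose factors were 1.17 to 1.18 in saline, 1.16 to 1.29 in dmPGE2, 0.904 to 1.14 in GalN/LPS and 0.683 to 0.830 in pretreated libraries. The pretreated factors lay below all others, so scaling by library totals lowers every pretreated level relative to the rest. The 100 most abundant genes took 49.5 to 54.2% of the counts in pretreated and 41.8 to 50.7% in the other libraries. Mitochondrially encoded genes took 3.94 to 7.46% in saline, 3.10 to 3.90% in dmPGE2, 6.97 to 7.47% in GalN/LPS and 2.58 to 4.46% in pretreated libraries. The part of these differences in the interaction was not tested, and values with library totals are printed where they change the call of a gene described or move a list's count by over 1.5 times.

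By the quasi-likelihood test of edgeR, with p-values adjusted by Benjamini-Hochberg over all 14280 genes, 2235 (15.7%) had a positive interaction and 2758 (19.3%) a negative one, together 35% of all genes. An interaction of at least 2-fold was estimated for 552 of the positive and 2052 of the negative calls. Of the arms from which the interaction is built, the injured one (pretreated against GalN/LPS livers) had 54% of all genes called, 3450 upward (24.2%) and 4259 downward (29.8%). Between dmPGE2 and saline livers 0 genes (0%) passed, at a smallest adjusted p = 0.0555, with 1978 genes (13.9%) at an unadjusted p under 0.05. DESeq2 called 130 genes higher and 124 lower in that uninjured arm. The effects of dmPGE2 in the 2 arms, which share no library, had a Pearson r of 0.02 and a Spearman rho of -0.01 across the 14280 genes, as a description of genes within 1 set of libraries. They had the same sign in 47.3% of genes. The interaction and the injured arm do share libraries, so their values are set side by side below and no overlap between them is counted.

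**Figure D1:**
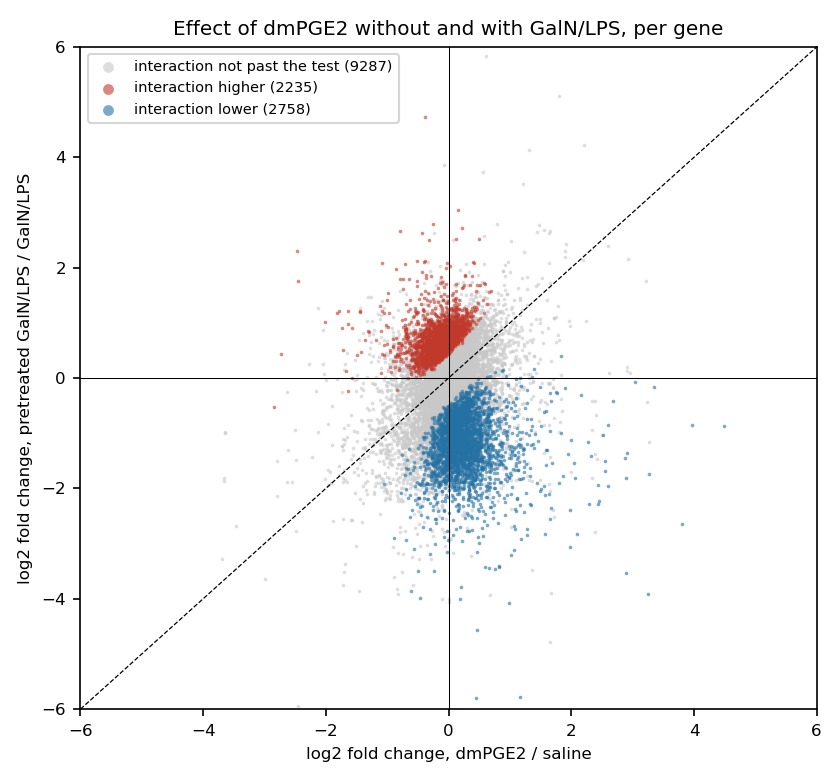
Each point is 1 of the tested genes, with the log2 fold change of dmPGE2 over saline on the x axis and of pretreated over GalN/LPS on the y axis; the dashed line marks equal effects, red and blue points are the 2235 genes with a positive and the 2758 with a negative interaction, and 2 genes lie outside the axes. The called genes spread mostly along the y axis, away from the dashed line.

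Which group had the highest mean level is largely set by the contrast, so these counts describe the calls and are no separate result. Pretreated and saline levels enter the contrast with a plus sign, GalN/LPS and dmPGE2 levels with a minus sign. Among the 2758 genes with a negative interaction the mean was highest in GalN/LPS livers for 1511, in dmPGE2 livers for 1019, in saline livers for 226 and in pretreated livers for 2. Among the 2235 genes with a positive interaction it was highest in pretreated livers for 1907, in saline for 259, in dmPGE2 for 67 and in GalN/LPS for 2. Among genes not called it was highest in pretreated livers for 2513, in dmPGE2 for 2411, in GalN/LPS for 2395 and in saline for 1968. A difference of differences of mean CPM, which unlike log2 values adds rather than multiplies, had the same sign as the log2 interaction for 2754 of the negative and 2234 of the positive calls. The balance of the calls moved with the scaling. With library totals in place of TMM, 186 genes had a positive and 5189 a negative interaction, which is 1.3% and 36.3% of all genes, so that positive calls made up 3.46% of calls against 44.8% with TMM. The median interaction of all genes was then -0.69 against -0.11, and changes below are best read against those medians. Counts for lists are best read against the shares of all genes. These were 15.7% positive and 19.3% negative with TMM, and 1.3% and 36.3% with library totals. Without GalN/LPS 3 1435 genes had a positive interaction.

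**Figure D2:**
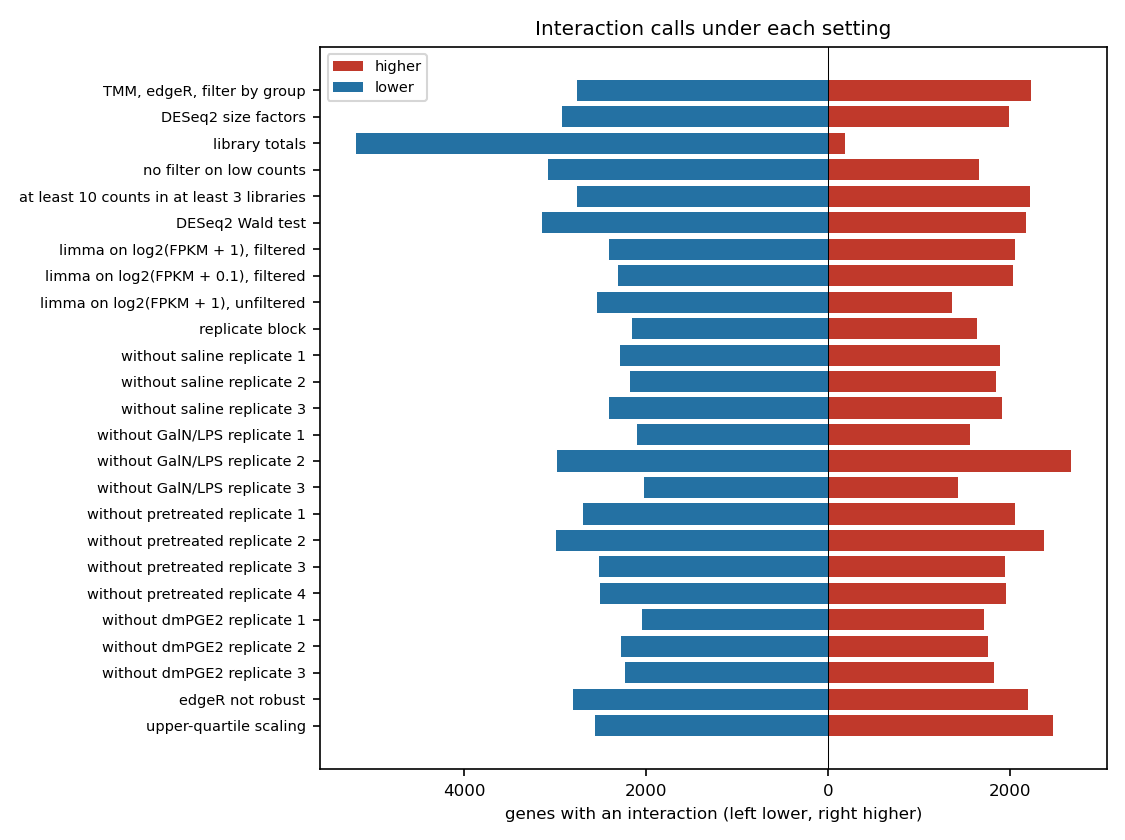
Bars give the number of genes with a negative interaction (left) and a positive one (right) under each setting on the y axis, with the fit of the report on top. Library totals gave 186 positive and 5189 negative calls, and the other settings lay between 1365 and 2677 positive calls.

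NF-kB feedback and adhesion genes had negative interactions together. The inhibitor of NF-kB, its ubiquitin ligase brakes and the adhesion molecules are themselves among the genes that NF-kB transcribes. Of 21 tested members 15 had a negative and 0 a positive interaction, where 19.3% and 15.7% of all genes did, and the list's median was -1.80 against -0.11 for all genes. In the injured arm 20 of the 21 fell, and in the uninjured arm 0 passed. Nfkbia, which encodes the inhibitor IkB alpha (ENSMUSG00000021025, chromosome 12, 55489410 to 55492647), was at 26.3, 24.9 and 20.2 CPM in saline and 19.4, 23.9 and 18.7 CPM in dmPGE2 livers. It was at 153, 143 and 167 CPM in GalN/LPS and 32.9, 33.7, 32.4 and 27.8 CPM in pretreated livers. The GalN/LPS libraries stood apart from all others, and the pretreated ones lay just above the uninjured. The interaction of Nfkbia was -2.07 ± 0.19 log2 units (standard error; edgeR with Benjamini-Hochberg adjustment, adjusted p = 1.65e-05), from -2.28 ± 0.13 in injured and -0.21 ± 0.14 in uninjured livers. Read the other way, GalN/LPS raised Nfkbia by 2.70 ± 0.14 without and by 0.62 ± 0.13 with dmPGE2.

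The promoters of 4 named members of the NF-kB and cytokine lists hold the NF-kB consensus shortly before the transcription start. They are shown because of that match, and named members for which no match was found there are not shown. Of the 4, 3 had a negative interaction and the other could not be estimated. Each is the 170 bases before the start in RefSeq's annotation of GRCm38.p6, written 5′ to 3′ along the gene's strand, and capitals mark matches to the NF-kB consensus on either strand.
Nfkbia, chr12:55492648-55492817, minus strand: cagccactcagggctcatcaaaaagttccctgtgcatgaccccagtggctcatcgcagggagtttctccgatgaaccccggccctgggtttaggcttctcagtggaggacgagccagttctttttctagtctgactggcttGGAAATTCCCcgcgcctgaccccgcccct
Tnip1, chr11:54962941-54963110, minus strand: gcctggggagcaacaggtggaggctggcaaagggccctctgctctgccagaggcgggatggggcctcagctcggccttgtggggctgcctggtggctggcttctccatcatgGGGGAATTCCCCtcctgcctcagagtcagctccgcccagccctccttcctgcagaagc
Cxcl10, chr5:92348890-92349059, minus strand: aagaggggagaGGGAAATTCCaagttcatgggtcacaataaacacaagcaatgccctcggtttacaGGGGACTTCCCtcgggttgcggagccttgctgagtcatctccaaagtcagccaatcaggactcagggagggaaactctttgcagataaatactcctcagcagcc
Il6, chr5:30012944-30013113, plus strand: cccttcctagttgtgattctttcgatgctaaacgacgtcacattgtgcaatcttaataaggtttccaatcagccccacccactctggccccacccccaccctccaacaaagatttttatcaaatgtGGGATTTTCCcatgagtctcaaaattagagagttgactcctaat
The match begins 29 bases before the start of Nfkbia and 44 bases before that of Il6. Tnip1 has 3 overlapping matches, of which the farthest begins 58 bases before the start, and Cxcl10 has 1 at 159 bases and 2 overlapping ones from 104 bases. Of 10499 tested genes with a promoter in the RefSeq table (250 bases before to 50 bases after the start), 1276 (12.2%) held the consensus. Among genes with a negative interaction it was 309 of 2142 (14.4%), and among those with a positive one 189 of 1721 (11%). In the NF-kB list 11 of 17 genes with a promoter held it, and in the cytokine list 7 of 18. The NF-kB list was chosen from genes that NF-kB transcribes, so its high share is no result of these data. The cyclic AMP response element TGACGTCA, which reads the same on both strands, was in 357 of all these promoters (3.4%), in 60 of those with a negative interaction (2.8%) and in 61 of those with a positive one (3.54%). A match is a stretch of letters and shows no binding.

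Other NF-kB feedback genes moved like Nfkbia. Birc3 encodes a ubiquitin ligase of the tumor necrosis factor receptor complex. It was at 9.68, 8.82 and 8.74 CPM in saline and 8.25, 9.75 and 10.3 CPM in dmPGE2 livers. It was at 57.8, 46.3 and 57.1 CPM in GalN/LPS and 11.6, 13.7, 10.4 and 10.2 CPM in pretreated livers. The pretreated livers came down almost to the uninjured level and overlapped none of the GalN/LPS ones, and the interaction was -2.27 ± 0.21 (adjusted p = 1.65e-05). Tnip1, which binds the deubiquitinase A20, had -2.50 ± 0.26 (adjusted p = 2.86e-05), with -2.19 ± 0.17 in the injured and 0.31 ± 0.19 in the uninjured arm. It was at 92.3, 61.3 and 76.4 CPM in GalN/LPS and 16.8, 22.4, 13.6 and 14.4 CPM in pretreated livers, so the groups did not overlap.

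**Figure D3:**
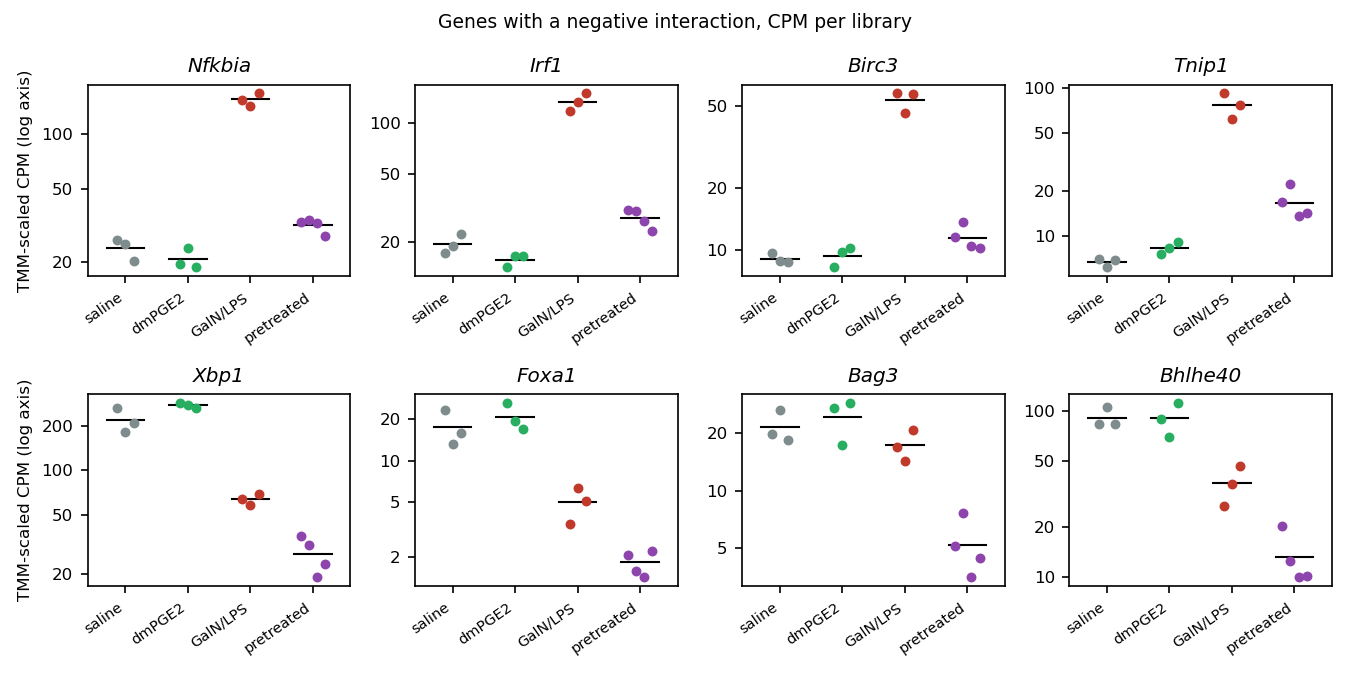
Points are the level of 1 gene in each library, in TMM-scaled CPM on log axes, by group on the x axis, and lines are group means. In the upper row (Nfkbia, Irf1, Birc3 and Tnip1) the GalN/LPS livers are highest. The pretreated ones lie nearer the uninjured, but above all of them for Nfkbia, Irf1 and Tnip1. In the lower row (Xbp1, Foxa1, Bag3 and Bhlhe40) the pretreated livers are lowest.

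Cytokine and chemokine genes had negative interactions too, and some members were almost absent without injury. Of 28 tested members 11 had a negative and 0 a positive interaction, while 25 fell in the injured arm, and the median interaction was -2.02. The list's median was -1.82 without the 8 members that had under 3 counts over all libraries of some group. Il1b, the mRNA of interleukin 1 beta, was at 1.24, 0.498 and 1.01 CPM in saline and 1.799, 1.34 and 1.39 CPM in dmPGE2 livers. It was at 189, 125 and 179.7 CPM in GalN/LPS and 35.6, 20.02, 27.9 and 30.7 CPM in pretreated livers. Every dmPGE2 library was above every saline one at these low levels, but the uninjured change of 0.72 ± 0.33 did not pass (adjusted p = 0.347). The interaction of Il1b was -3.25 ± 0.39 (adjusted p = 9.86e-05). The interferon-induced chemokine Cxcl10 had -2.43 ± 0.32 (adjusted p = 0.000127), with 413, 289 and 347 CPM in GalN/LPS and 58.9, 55.0, 59.9 and 52.1 CPM in pretreated livers. Ccrl2, an atypical receptor that presents the chemoattractant chemerin, had -4.01 ± 0.48 (adjusted p = 0.000101). The monocyte-attracting chemokine Ccl7 had -4.25 ± 1.11 (adjusted p = 0.00933) from 4 counts in all saline and 8 in all dmPGE2 libraries.

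Tumor necrosis factor itself did not pass. Tnf had 11 counts over the saline and 8 over the dmPGE2 libraries, and its levels with injury were 23.6, 16.1 and 19.5 CPM in GalN/LPS and 6.91, 2.87, 7.09 and 5.08 CPM in pretreated livers. It fell in the injured arm (-1.85 ± 0.27, adjusted p = 5.75e-05), the uninjured change had a standard error of 0.77, and the interaction was -1.30 ± 0.89 (adjusted p = 0.265, 95% interval -3.17 to 0.58). Il6 had 0 counts in all 6 uninjured libraries against 154 over the GalN/LPS and 18 over the pretreated ones. With both uninjured groups under the floor of 3 counts, no uninjured fold change and no interaction can be given for it. Ptgs2, the inducible cyclooxygenase, had 2 counts over saline and 1 over dmPGE2 libraries, both under that floor, so no size is given for its interaction, which did not pass (adjusted p = 0.4899). Ccl7 passed with uninjured counts as few as those of Tnf, and the part of depth in these calls was not tested. Over all tested genes 116 had under 3 counts over the saline or the dmPGE2 libraries, and 22 of these were among the 2758 negative and 0 among the 2235 positive calls.

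Several of the largest negative estimates rested on few counts without injury. Slc7a11, the cystine transporter, led with -7.16 ± 1.70, but it had 0 counts in saline and 4 in dmPGE2 livers, so the size depends on the prior count of the fit and is no bound. Its levels with injury were 11.9, 6.05 and 6.86 CPM in GalN/LPS and 0.873, 0.683, 0.334 and 0.254 CPM in pretreated livers. Trem1, an amplifier of myeloid inflammation, had -4.67 ± 0.94 (adjusted p = 0.00207) from 1 count over saline and 8 over dmPGE2 libraries. Mefv, the pyrin gene, had -4.06 ± 0.82 (adjusted p = 0.00202) from 2 counts over saline and 15 over dmPGE2 libraries. It was at 23.7, 14.5 and 23.9 CPM in GalN/LPS and 7.70, 7.45, 7.92 and 6.01 CPM in pretreated livers. Trem1 and Mefv were under the floor of 3 counts in saline, so their sizes are no bound either. Over the alternatives they ran from -6.38 to -1.73 for Trem1 and from -6.53 to -1.28 for Mefv. The homeobox gene Hoxa5 had -5.05 ± 0.88 (adjusted p = 0.000823) from 4 counts over saline and 18 over dmPGE2 libraries. Over the alternatives Hoxa5 ran from -6.20 to -1.87. The estimates for dmPGE2 alone, from levels near 0, were 2.45 ± 0.93 for Trem1, 2.55 ± 0.80 for Mefv and 1.99 ± 0.80 for Hoxa5. None of these 3 passed the test.

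Interferon response genes also had negative interactions. Of 28 members 16 had a negative and 1 a positive interaction (median -1.02), and in the injured arm 27 fell and 1 rose. With library totals 26 were negative and 0 positive. Irf1, a transcription factor that both interferon and NF-kB induce, was at 17.3, 18.98 and 22.3 CPM in saline and 14.3, 16.5 and 16.8 CPM in dmPGE2 livers. It was at 118, 132 and 149.6 CPM in GalN/LPS and 30.9, 30.7, 26.5 and 23.2 CPM in pretreated livers. Its levels in dmPGE2 livers were all below those in saline livers by a small margin that did not pass (-0.30 ± 0.15, adjusted p = 0.372), and the interaction was -1.96 ± 0.20 (adjusted p = 2.86e-05). For the interferon-inducible GTPase Irgm1 the pretreated livers were not only below the GalN/LPS livers but below the uninjured ones. It was at 59.4, 58.9 and 53.4 CPM in saline and 52.0, 57.9 and 47.96 CPM in dmPGE2 livers. It was at 107, 71.4 and 90.7 CPM in GalN/LPS and 26.04, 31.1, 28.8 and 26.7 CPM in pretreated livers. The interaction of Irgm1 was -1.55 ± 0.19 (adjusted p = 9.86e-05). Irgm1 and Ifi47, which had -1.44 ± 0.19 (adjusted p = 0.0001297), have close relatives in the genome, so some of their reads are uncertain in origin.

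Immediate early genes, which cells switch on within minutes of a stimulus, had a negative interaction in 8 of 23 cases and a positive one in 0 (median -1.62), while 20 fell in the injured arm. With library totals 15 of the 23 passed. The AP-1 factor Fosl2 had -2.35 ± 0.33 (adjusted p = 0.000217), the zinc finger factor Klf6 -2.15 ± 0.32 (adjusted p = 0.000295) and Klf2, which responds to blood flow in endothelium, -1.17 ± 0.25 (adjusted p = 0.00262). Klf6 was at 2.75, 2.94 and 4.804 CPM in saline and 3.41, 4.295 and 2.83 CPM in dmPGE2 livers. It was at 64.6, 35.8 and 58.3 CPM in GalN/LPS and 11.6, 11.9, 12.7 and 11.4 CPM in pretreated livers. The 4 pretreated livers were close to each other and still above all 6 uninjured ones.

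Markers of cells other than hepatocytes moved with these lists. In bulk tissue, fewer cells of a type and less RNA per cell cannot be told apart. Of 12 sinusoidal endothelial markers 10 had a negative interaction (median -1.77), and the summed level of the list was 99.2 to 117 CPM in saline, 108 to 146 in dmPGE2, 693 to 875 in GalN/LPS and 206 to 452 in pretreated livers. Of 13 Kupffer cell and macrophage markers 11 had a negative interaction (median -1.42), with summed levels of 220.2 to 277 CPM in saline, 277 to 376 in dmPGE2, 828 to 1304 in GalN/LPS and 390.4 to 637 in pretreated livers. No marker of these lists was at 0 counts over a group. Dnase1l3, a secreted nuclease of endothelium and macrophages, was at 10.4, 11.7 and 8.07 CPM in saline and 16.2, 12.8 and 13.8 CPM in dmPGE2 livers. It was at 127, 107 and 135 CPM in GalN/LPS and 24.9, 41.3, 32.7 and 24.2 CPM in pretreated livers. All dmPGE2 libraries were above all saline ones, though the change of 0.51 ± 0.19 did not pass (adjusted p = 0.253), and the interaction was -2.51 ± 0.26 (adjusted p = 2.86e-05). The endothelial lectin Clec4g had -2.10 ± 0.22 (adjusted p = 2.86e-05) and the inhibitory Fc receptor Fcgr2b -1.74 ± 0.27 (adjusted p = 0.000365). Among macrophage genes Adgre1, which encodes F4/80, had -2.39 ± 0.37 (adjusted p = 0.000464), Cd68 -1.63 ± 0.31 (adjusted p = 0.00158) and Csf1r, the receptor for macrophage colony-stimulating factor, -1.42 ± 0.26 (adjusted p = 0.00139).

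Blood leukocyte markers were counted as well. Of 12 neutrophil markers 4 had a negative and 1 a positive interaction (median -1.04), where 11 fell in the injured arm, and with library totals 7 were negative and 0 positive. The summed level of the neutrophil list, which its most abundant members dominate, did not separate the groups (785 to 1537 CPM in saline, 1062 to 1499.8 in dmPGE2, 1168 to 1512 in GalN/LPS and 962 to 2158 in pretreated livers). The members did differ with injury, by a median log2 change with GalN/LPS of 6.64 without and 5.42 with dmPGE2. Ly6g, a defining marker, had 0 counts in dmPGE2 livers. Of 9 monocyte markers 4 had a negative interaction (median -0.97), with summed levels of 40.6 to 66.3 CPM in saline, 64.0 to 82.8 in dmPGE2, 449 to 746 in GalN/LPS and 187 to 282 in pretreated livers. Cd14, the lipopolysaccharide co-receptor, had -2.38 ± 0.31 (adjusted p = 0.000145), with 149, 94.1 and 142 CPM in GalN/LPS and 43.2, 43.4, 44.95 and 32.7 CPM in pretreated livers. Lysozyme, Lyz2, had -1.91 ± 0.29 (adjusted p = 0.000358) and Plac8 -2.01 ± 0.35 (adjusted p = 0.00123). Among T and NK cell markers 1 of 12 passed, among B cell markers 3 of 6, among stellate cell and fibroblast markers 3 of 11 and among cholangiocyte markers 3 of 6, in each case with a negative interaction, against 19.3% of all genes. With library totals 4 of the T and NK cell, 3 of the B cell, 6 of the stellate cell and fibroblast and 4 of the cholangiocyte markers were negative, against 36.3% of all genes. Of the calls with TMM, Ms4a1 was lost in 10 of 22 alternatives, Lum in 11 of 24 and Sox9 in 13 of 24. Krt19 was lost in 7 of 24, Col1a2 and Dcn in 6 each, Cd74 in 3, Gzma in 2, Tspan8 in 1 and Cd79a in 0. The part of these marker levels in the interactions of the inflammatory lists was not tested.

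Cell death genes had negative interactions that included the protective members. Of 24 apoptosis genes 9 had a negative and 2 a positive interaction (median -0.50), and of 13 necroptosis and pyroptosis genes 6 had a negative and 0 a positive one (median -0.87). With library totals 15 of the apoptosis and 8 of the necroptosis and pyroptosis genes were negative, and 0 of either were positive. Mcl1, which guards mitochondria against permeabilization, was at 74.7, 68.2 and 87.6 CPM in saline and 76.8, 78.3 and 74.3 CPM in dmPGE2 livers. It was at 149, 109 and 146 CPM in GalN/LPS and 46.8, 55.4, 42.5 and 51.3 CPM in pretreated livers. The pretreated livers were lowest of all, and the interaction was -1.46 ± 0.20 (adjusted p = 0.000145). Cflar, which encodes the caspase-8 inhibitor c-FLIP, had -1.34 ± 0.20 (adjusted p = 0.000258). On the executing side, the apoptosome scaffold Apaf1 had -2.63 ± 0.42 (adjusted p = 0.000444), the inflammatory caspase Casp4 -1.73 ± 0.30 (adjusted p = 0.000799) and the necroptosis pore Mlkl -1.27 ± 0.30 (adjusted p = 0.005402). Ripk1, the kinase that joins tumor necrosis factor signalling to cell death or survival, was at 20.2, 15.5 and 22.5 CPM in saline and 22.2, 20.6 and 20.6 CPM in dmPGE2 livers. It was at 20.7, 15.1 and 20.6 CPM in GalN/LPS and 8.49, 9.57, 5.67 and 7.11 CPM in pretreated livers. GalN/LPS and saline livers overlapped and the pretreated ones stood below both, with an interaction of -1.41 ± 0.26 (adjusted p = 0.00118). Ripk1 overlaps Serpinb6a, which had 0.770 times its counts, so some reads may not be its own.

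A further set of mRNAs was lowest in pretreated livers, below saline as well as GalN/LPS. Xbp1, a transcription factor of the unfolded protein response, was at 265, 182 and 208 CPM in saline and 287, 279 and 263 CPM in dmPGE2 livers. It was at 64.02, 58.1 and 69.4 CPM in GalN/LPS and 36.1, 31.2, 18.9 and 23.2 CPM in pretreated livers. All 6 uninjured livers were above all GalN/LPS livers, which were above all pretreated ones, and the interaction was -1.56 ± 0.26 (adjusted p = 0.000674). The pioneer factor Foxa1 had the same order, with 3.45, 6.37 and 5.12 CPM in GalN/LPS and 2.06, 1.57, 1.42 and 2.199 CPM in pretreated livers, and -1.70 ± 0.36 (adjusted p = 0.00272). Nr5a2, a nuclear receptor of bile acid and cholesterol genes, had -1.21 ± 0.24 (adjusted p = 0.001701). The lipid droplet coat gene Plin2 was at 175, 147 and 159 CPM in GalN/LPS and 68.4, 93.5, 65.6 and 80.2 CPM in pretreated livers, against 269.6 to 537 CPM over the 6 uninjured libraries, with -1.06 ± 0.29 (adjusted p = 0.0107). Bhlhe40, a clock repressor, had -1.47 ± 0.36 (adjusted p = 0.00866), again with no overlap between pretreated and GalN/LPS livers.

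Hepatocyte transcription factors had 7 of 21 negative and 4 positive calls (median -0.59), against 19.3% and 15.7% of all genes. With library totals this was 14 negative and 1 positive, against 36.3% and 1.3% of all genes. The xenobiotic receptor Nr1i2 was among the positive ones. It was at 50.2, 60.04 and 81.7 CPM in saline and 42.02, 37.4 and 46.99 CPM in dmPGE2 livers. It was at 43.7, 51.3 and 36.7 CPM in GalN/LPS and 75.6, 54.4, 68.5 and 63.9 CPM in pretreated livers. Every dmPGE2 library was below every saline one and every pretreated library above every GalN/LPS one, but the uninjured change did not pass. The interaction of Nr1i2 was 1.18 ± 0.24 (adjusted p = 0.00218). Heat shock genes had 6 negative and 1 positive calls among 14 (median -0.52; 8 and 0 with totals), led by the co-chaperones Bag3 (-1.91 ± 0.34, adjusted p = 0.00126) and Dnajb1 (-1.62 ± 0.31, adjusted p = 0.00163). Of 16 p53 pathway genes 5 had a negative and 1 a positive interaction. Trp53 itself had -1.54 ± 0.25 (adjusted p = 0.000492) and the cell cycle inhibitor Cdkn1a -2.23 ± 0.45 (adjusted p = 0.002598). The injured change of Cdkn1a was -0.87 ± 0.25, with an overlap between the groups. Its estimate for dmPGE2 alone was 1.36 ± 0.37 and did not pass (adjusted p = 0.137). Trp53inp1, a p53 target that promotes autophagy, went the opposite way to Trp53 and Cdkn1a (3.06 ± 0.47, adjusted p = 0.00109). Of 22 unfolded protein and integrated stress response genes 2 had a negative and 1 a positive interaction, shares below the 19.3% and 15.7% of all genes. With library totals 7 were negative and 0 positive, where 36.3% and 1.3% of all genes were. Nfe2l2, which encodes NRF2, had -1.78 ± 0.24 (adjusted p = 0.000155). The 16 NRF2 target and glutathione genes had 5 positive and 4 negative calls (median 0.33), against 15.7% and 19.3% of all genes. With library totals they had 0 and 6 (median -0.26), against 1.3% and 36.3% of all genes.

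Some of the strongest positive interactions were those of genes with their highest level in pretreated livers. Setdb2, a histone methyltransferase gene known to respond to glucocorticoids, was at 7.98, 7.03 and 8.02 CPM in saline and 9.22, 7.89 and 9.53 CPM in dmPGE2 livers. It was at 8.49, 10.2 and 6.35 CPM in GalN/LPS and 37.6, 43.2, 80.9 and 57.4 CPM in pretreated livers. All 9 libraries of the first 3 groups lay between 6.35 and 10.2 CPM, and the 4 pretreated ones did not overlap them. The interaction was 2.50 ± 0.34 (adjusted p = 0.000184), with 2.72 ± 0.24 in injured and 0.21 ± 0.24 in uninjured livers. Phf11c, next to Setdb2 on chromosome 14 (59380833 to 59395381, against 59402009 to 59440884 for Setdb2), had 2.64 ± 0.48 (adjusted p = 0.00175), with 5.41, 5.36 and 3.69 CPM in GalN/LPS and 14.3, 12.4, 29.2 and 28.6 CPM in pretreated livers. Phf11c belongs to a cluster of similar genes, so its reads are uncertain in origin. Trp53inp1 was at 28.8, 28.9 and 46.7 CPM in saline and 26.8, 26.2 and 24.5 CPM in dmPGE2 livers. It was at 45.7, 42.4 and 42.8 CPM in GalN/LPS and 170.1, 158, 418 and 336 CPM in pretreated livers, so that the third and the fourth pretreated library had more than the other two, and the dmPGE2 livers were below all others. The bile acid transporter Slc10a2 was at 14.8, 15.3 and 32.9 CPM in saline and 15.03, 19.7 and 13.7 CPM in dmPGE2 livers. The dmPGE2 livers overlapped the saline ones and lay below the injured ones. It was at 20.8, 31.1 and 31.7 CPM in GalN/LPS and 172, 83.4, 96.0 and 133 CPM in pretreated livers, and the interaction was 2.50 ± 0.49 (adjusted p = 0.003702).

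**Figure D4:**
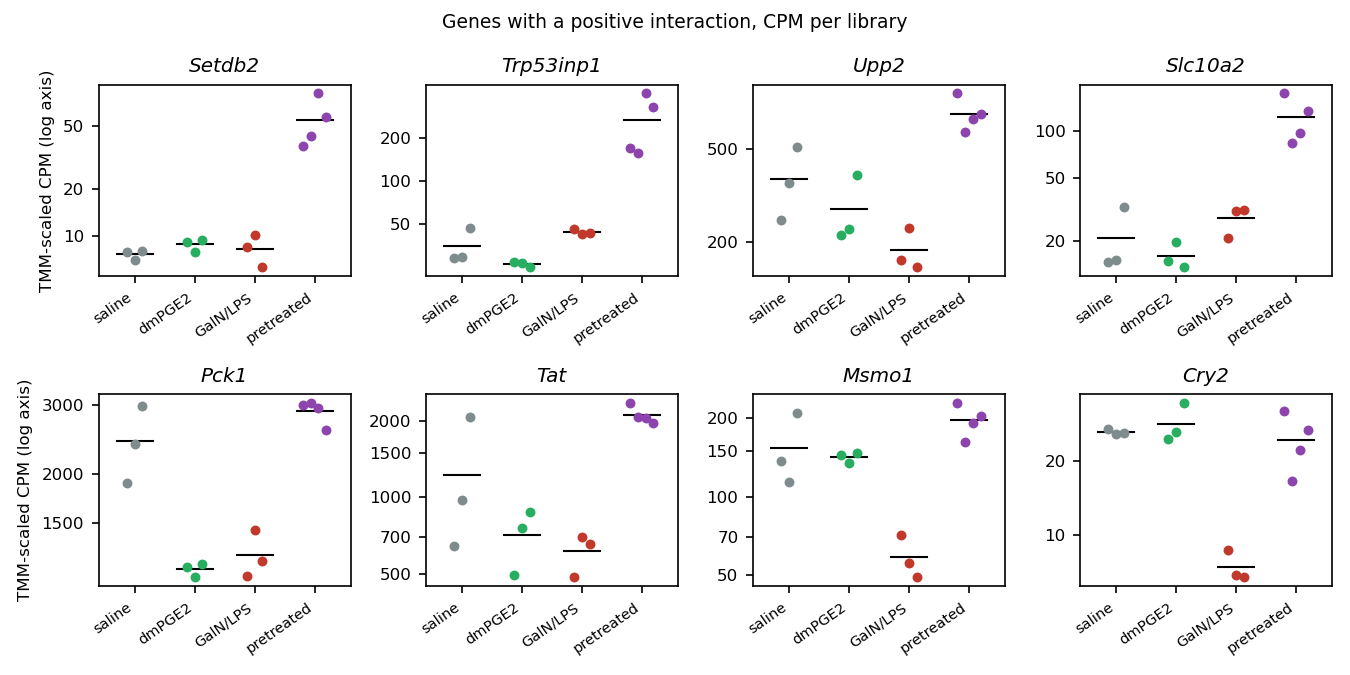
Points are the level of 1 gene in each library, in TMM-scaled CPM on log axes, by group on the x axis, and lines are group means. Pretreated livers are highest for Setdb2, Trp53inp1, Upp2 and Slc10a2; for Pck1 the dmPGE2 livers are below the saline ones, and for Msmo1 and Cry2 the GalN/LPS livers are lowest.

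The 2 uridine phosphorylases, which split uridine into uracil and ribose phosphate, had opposite interactions. Upp2, the liver form, was at 249, 359 and 511 CPM in saline and 216, 229 and 387 CPM in dmPGE2 livers. It was at 168, 229.6 and 157 CPM in GalN/LPS and 862, 587, 667 and 701 CPM in pretreated livers. The pretreated livers were above all others, with an interaction of 2.36 ± 0.37 (adjusted p = 0.0005995). Upp1, the form that inflammation induces, was at 1.15, 0.947 and 1.01 CPM in saline and 1.16, 1.45 and 1.52 CPM in dmPGE2 livers. It was at 41.03, 25.3 and 48.3 CPM in GalN/LPS and 13.1, 9.43, 10.01 and 7.28 CPM in pretreated livers, and its interaction was -2.34 ± 0.37 (adjusted p = 0.000423). Over the 18 galactose and uridine nucleotide genes, which handle the toxin used here, 9 had a positive and 2 a negative interaction (median 0.84). With library totals 1 was positive and 4 were negative, and the median was 0.27. Galm, which interconverts the 2 forms of galactose, was positive with TMM (1.04 ± 0.20, adjusted p = 0.00132) and not with totals (0.46, adjusted p = 0.0506).

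Among gluconeogenesis genes the 2 arms could point in opposite directions. Pck1, the rate-limiting enzyme of glucose synthesis, was at 1902, 2384 and 2975 CPM in saline and 1162, 1092 and 1181 CPM in dmPGE2 livers. It was at 1098, 1437 and 1203 CPM in GalN/LPS and 3004, 3034, 2944 and 2595 CPM in pretreated livers. Every dmPGE2 liver was below every saline liver, and every pretreated liver was above every GalN/LPS liver. The interaction was 2.30 ± 0.24 (adjusted p = 2.92e-05), the sum of 1.22 ± 0.17 with injury (adjusted p = 3.19e-05) and the reverse of -1.08 ± 0.18 without it, where the uninjured change just missed the threshold (adjusted p = 0.0555). Ppp1r3g, a subunit that targets protein phosphatase to glycogen, crossed in the same way at low levels, and its uninjured change did not pass either. It was at 1.101, 1.05 and 4.32 CPM in saline and 0.2999, 0.232 and 0.591 CPM in dmPGE2 livers. It was at 0.849, 2.02 and 0.461 CPM in GalN/LPS and 8.26, 4.37, 5.42 and 3.38 CPM in pretreated livers. Its interaction was the largest positive one named here (4.78 ± 0.89, adjusted p = 0.00209). Tat, a glucocorticoid-induced tyrosine breakdown enzyme, had 2.58 ± 0.47 (adjusted p = 0.00193), with one saline library inside the range of the pretreated ones. In the whole list of 17 gluconeogenesis and glycogen genes 8 had a positive and 1 a negative interaction (median 0.56). With library totals 4 were positive and 2 negative, and the median turned to -0.02.

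Inhbc, a liver-made activin subunit, showed another pattern. It was at 56.4, 89.4 and 50.4 CPM in saline and 34.04, 30.1 and 27.1 CPM in dmPGE2 livers. It was at 25.96, 38.3 and 26.8 CPM in GalN/LPS and 33.7, 32.5, 30.4 and 33.2 CPM in pretreated livers. All dmPGE2, GalN/LPS and pretreated livers lay below all saline ones, with no difference past the test within the injured arm (0.10 ± 0.18, adjusted p = 0.665), so that the interaction of 1.20 ± 0.26 (adjusted p = 0.00335) came with an uninjured change of -1.10 ± 0.19 (adjusted p = 0.0555). With library totals it was 0.64 and did not pass (adjusted p = 0.0588). Cyp26a1, which breaks down retinoic acid, and Prtn3, a serine protease best known from neutrophils, had uninjured estimates below 0 as well (-1.82 ± 0.56 and -2.45 ± 0.73), and interactions of 3.00 ± 0.71 (adjusted p = 0.00955) and 4.21 ± 1.07 (adjusted p = 0.0137).

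Cholesterol synthesis genes had positive interactions together with TMM, and fewer of them with library totals. Of 24 genes 16 had a positive and 0 a negative interaction (median 1.34), and with library totals 11 and 0 (median 0.75). Msmo1, a sterol oxidase that removes methyl groups, was at 138, 114 and 209 CPM in saline and 145, 135 and 148 CPM in dmPGE2 livers. It was at 71.5, 55.3 and 48.96 CPM in GalN/LPS and 229.5, 162, 192 and 204 CPM in pretreated livers. GalN/LPS livers were below all others, and the pretreated ones overlapped the uninjured, with an interaction of 1.86 ± 0.27 (adjusted p = 0.000252). Nsdhl, which acts in the next steps, was at 59.03, 38.8 and 35.7 CPM in GalN/LPS and 139, 108, 169 and 144 CPM in pretreated livers, against 40.2 to 55.4 CPM over the 6 uninjured libraries, and had 1.73 ± 0.27 (adjusted p = 0.000485). Of 17 fatty acid and triglyceride synthesis genes 6 had a positive and 0 a negative interaction (median 1.13), and with library totals 4 and 0. The desaturases Fads1 (1.78 ± 0.31, adjusted p = 0.000807) and Fads2 (1.30 ± 0.24, adjusted p = 0.00127) and the elongase Elovl5 (1.43 ± 0.33, adjusted p = 0.00467) make long polyunsaturated fatty acids, the precursors of prostaglandins. For Fads1 and Fads2 every dmPGE2 liver was below every saline liver and every pretreated liver above every GalN/LPS liver. Their uninjured changes did not pass (adjusted p = 0.173 for Fads1 and 0.0783 for Fads2).

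Secreted plasma protein mRNAs had the highest share of positive calls of all lists with TMM, 17 of 19 with 0 negative (median 0.92). With library totals 6 of the 19 were positive, a share below those of cholesterol synthesis and hepatocyte marker genes. Of the 10 hepatocyte markers 7 were positive and 0 negative (median 1.06), and 4 were positive with totals. Apoa1, the main protein of high-density lipoprotein, was at 10620.0, 10960.0 and 11290.0 CPM in saline and 6952, 7161 and 7721 CPM in dmPGE2 livers. It was at 10200.0, 12400.0 and 9592 CPM in GalN/LPS and 14420.0, 14690.0, 17280.0 and 18450.0 CPM in pretreated livers. Both arms were free of overlap in opposite directions, but the uninjured change of -0.59 ± 0.17 did not pass (adjusted p = 0.153). The interaction of Apoa1 was 1.19 ± 0.24 (adjusted p = 0.00206). Transthyretin, Ttr, had 1.22 ± 0.27 (adjusted p = 0.00347) and antithrombin, Serpinc1, 1.07 ± 0.23 (adjusted p = 0.00302). For Alb the interaction was 1.15 ± 0.34 (adjusted p = 0.0154), with an overlap between the injured groups, and it was lost with library totals (0.57, adjusted p = 0.0696). Of 19 coagulation genes 10 had a positive and 3 a negative interaction (median 0.76, and 3 each way with totals), with Kng1, the kininogen gene, at 1.24 ± 0.26 (adjusted p = 0.00251) and the plasmin inhibitor Serpinf2 at 1.08 ± 0.23 (adjusted p = 0.00265). Of 26 acute phase genes 7 were positive and 1 negative (median 0.92, and 1 each way with totals).

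Several further lists, not all of them particular to hepatocytes, leaned the same way with TMM and lost most or all positive calls with totals. Of 23 cytochrome P450 and conjugation genes 11 were positive and 0 negative (3 and 0 with totals), including Cyp1a2 (1.61 ± 0.34, adjusted p = 0.00281) and Cyp2a5 (1.66 ± 0.37, adjusted p = 0.00461). Cyp2a5 has close relatives in the genome, so its reads are uncertain in origin. Of 17 bile acid genes 9 were positive and 0 negative (3 and 0 with totals), including the bile salt export pump Abcb11 at 1.10 ± 0.26 (adjusted p = 0.004998). Of 19 urea cycle and amino acid genes 5 were positive (0 with totals), where 18 rose in the injured arm. Of 23 fatty acid oxidation and ketogenesis genes 7 were positive and 2 negative (0 and 2 with totals). Of 22 nuclear-encoded respiratory chain subunits 18 were positive (0 with totals, median 0.68), with Ndufa9 at 0.84 ± 0.20 and 0.27 with totals. Of 30 cytosolic ribosomal protein genes 21 were positive (0 with totals), and their median of 0.56 became -0.02. Rpl11 had 0.73 ± 0.18 with TMM and 0.16 with totals, and many processed pseudogenes leave some of these reads uncertain. Transcripts of the mitochondrial genome had few calls, 1 positive and 0 negative in 13 (median 0.17), against 15.7% and 19.3% of all genes. With totals they had 0 and 2 (median -0.42), against 1.3% and 36.3% of all genes, beside the library shares given above.

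**Figure D5:**
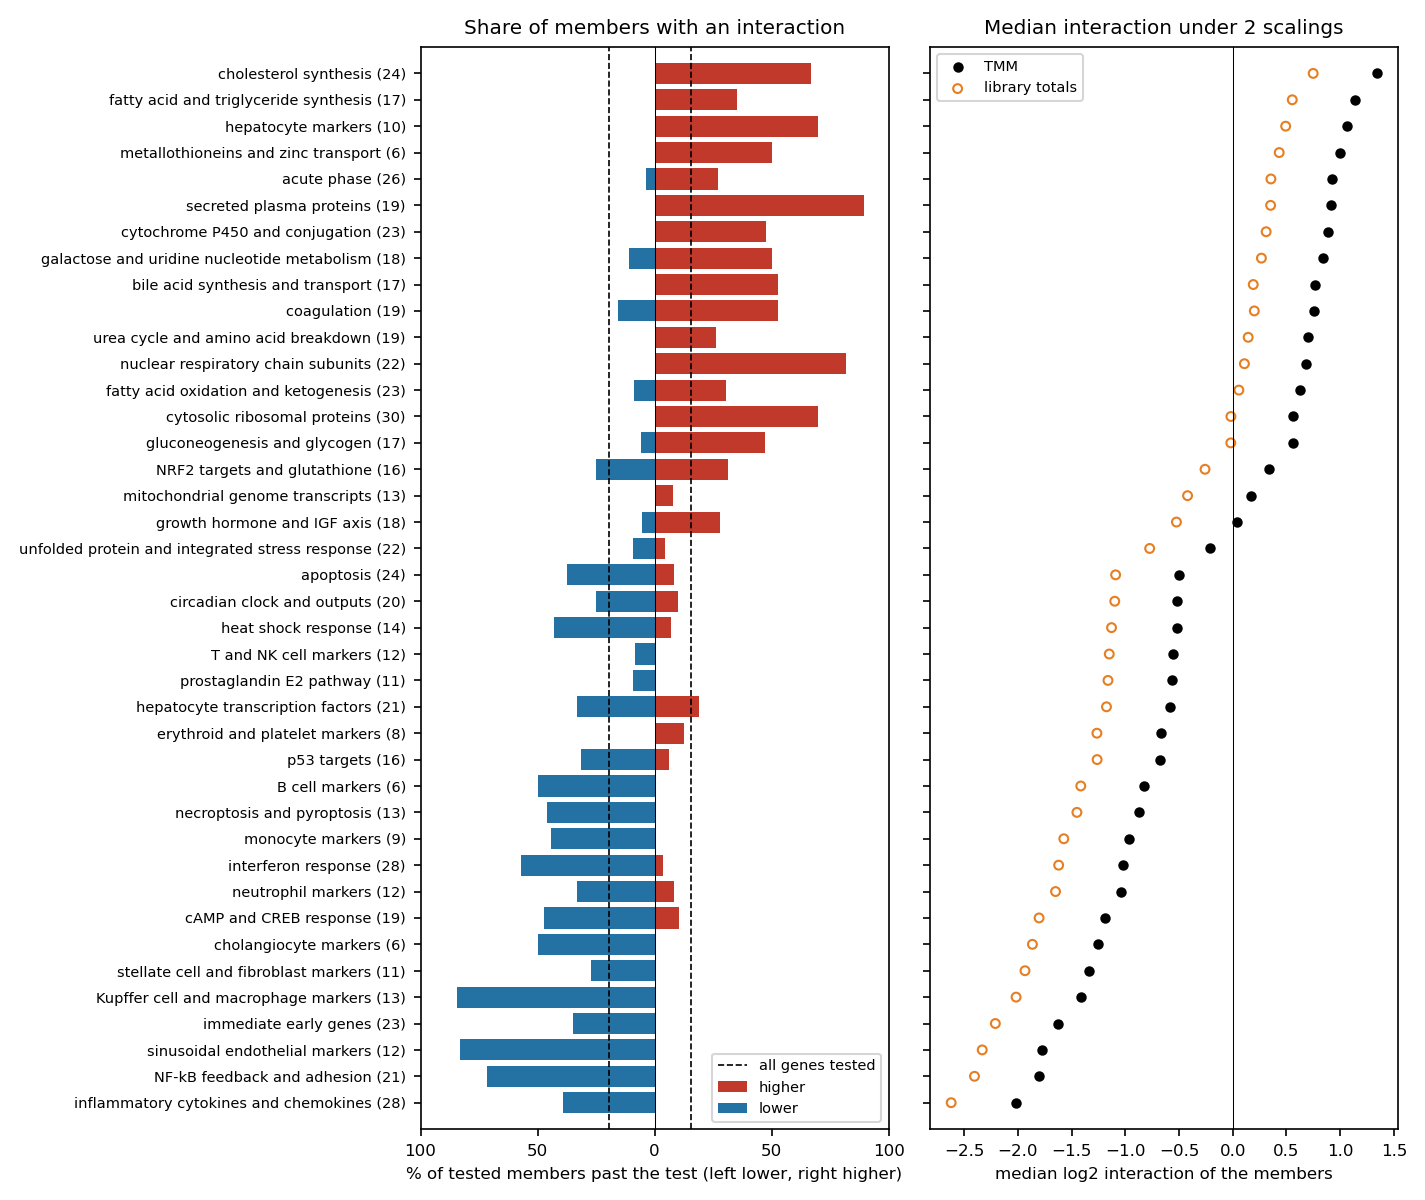
For each list, with its number of tested genes in brackets, the left panel gives the percentage of members with a negative (left) and a positive (right) interaction, with dashed lines at 19.3% and 15.7% for all genes, and the right panel gives the median log2 interaction with TMM (filled) and with library totals (open). Cholesterol synthesis has the highest median and cytokines the lowest under both scalings.

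Of 20 circadian genes 5 had a negative and 2 a positive interaction (median -0.52), near the 19.3% and 15.7% of all genes. With library totals 9 were negative and 1 was positive, against 36.3% and 1.3% of all genes. The repressor Cry2 was at 27.1, 25.8 and 25.99 CPM in saline and 24.7, 26.2 and 34.6 CPM in dmPGE2 livers. It was at 8.71, 6.87 and 6.76 CPM in GalN/LPS and 31.99, 16.6, 22.4 and 26.8 CPM in pretreated livers. It was low in the 3 GalN/LPS livers, while the pretreated and uninjured ones overlapped, and the interaction was 1.59 ± 0.27 (adjusted p = 0.000756).

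The prostaglandin E2 pathway itself had 1 call in 11 tested genes with TMM, against 35% of all genes. With library totals it had 5, all negative, against 37.6% of all genes, and its median of -0.57 became -1.16. The call with TMM was Pla2g4a, the phospholipase that frees arachidonic acid, with -2.27 ± 0.59 (adjusted p = 0.00843). Its levels were 7.54, 3.78 and 7.58 CPM in GalN/LPS and 2.46, 2.46, 1.59 and 0.846 CPM in pretreated livers, against at most 1.33 CPM in the uninjured livers. The receptor genes Ptger1 and Ptger3 did not pass the filter on low counts, with 21 and 14 counts over all 13 libraries. Ptger2 was at 0.596, 0.548 and 0.817 CPM in saline and 0.225, 0.464 and 0.295 CPM in dmPGE2 livers. It was at 2.18, 1.64 and 2.41 CPM in GalN/LPS and 0.635, 1.16, 0.667 and 1.10 CPM in pretreated livers. It was lower with dmPGE2 in both arms, by estimates of -1.21 ± 0.36 with injury (adjusted p = 0.009597) and -1.03 ± 0.45 without (adjusted p = 0.314), and the interaction was -0.18 ± 0.62 (adjusted p = 0.835, 95% interval -1.49 to 1.12). Ptger4 had -0.57 ± 0.86 (adjusted p = 0.626, 95% interval -2.37 to 1.23), and it overlaps Ttc33, which had 6.98 times its counts, so its reads are uncertain. Hpgd, which inactivates prostaglandin E2, was at 49.7, 57.6 and 42.2 CPM in saline and 72.5, 58.6 and 71.8 CPM in dmPGE2 livers. It was at 57.8, 113 and 56.3 CPM in GalN/LPS and 88.04, 79.2, 119.5 and 122 CPM in pretreated livers. Its estimates of 0.43 ± 0.23 and 0.44 ± 0.25 passed in neither arm, and the interaction was -0.01 ± 0.34 (adjusted p = 0.989, 95% interval -0.73 to 0.72). These intervals do not show that the receptors or Hpgd responded alike in both arms.

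Genes of cyclic AMP signalling had 9 negative and 2 positive interactions among 19 (median -1.19), and with library totals 14 and 0. Pde4b, a phosphodiesterase that breaks down cyclic AMP, was at 6.93, 4.88 and 8.17 CPM in saline and 3.52, 5.34 and 6.03 CPM in dmPGE2 livers. It was at 30.6, 19.2 and 29.7 CPM in GalN/LPS and 4.84, 5.47, 5.67 and 5.16 CPM in pretreated livers. The pretreated livers overlapped the uninjured ones and the GalN/LPS livers stood above, with an interaction of -1.90 ± 0.32 (adjusted p = 0.0005995). Rgs2, which restrains G protein signalling, had -1.96 ± 0.39 (adjusted p = 0.00202). Prkaca, the main catalytic subunit of protein kinase A, had a small positive interaction (0.68 ± 0.18, adjusted p = 0.00802) that was 0.10 with library totals (adjusted p = 0.699).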

How the data were processed

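RNA sequencing of 13 mouse liver libraries in 4 groups was analysed from the processed tables. The authors deposited raw counts of reads for each Ensembl gene (whole numbers throughout) and FPKM (counts per gene length and library) for the same libraries. Per the labels, libraries were made with the NEBNext Ultra RNA kit. HISAT2, with no version, and GRCm38/mm10 are named in the submitters' processing notes. The sources used here give neither the read counter nor the annotation release nor whether strand was used. Overlapping genes may therefore share reads, as 21 of the 133 genes eligible for naming could. Columns named ALF were taken as GalN/LPS. The series description names a different injury, and the sample labels were followed. No 2 libraries were identical.

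From the counts, all libraries were fitted with edgeR 4.0.16 in R 4.3.3 (group as the only term, filter by group, TMM, robust quasi-likelihood F test, two-sided, Benjamini-Hochberg at 0.05). Tested genes held 99.92% of counts. Residual degrees of freedom were 9, the median prior degrees 8.96. CPM use TMM-scaled totals. Standard errors come from the log2 fold change and its F statistic. Counting floors are 3 counts over a group and cover counting error only. The model was tested on simulated data, with 50 changed genes of each size. It called 2% of interactions of 0.5 log2 units, 24% of those of 1, 80% of those of 2 and 100% of those of 3. Of 13995 unchanged genes 1 was called. Genes that did not pass may therefore have interactions of such sizes. Genes eligible for naming were the 12 largest interactions each way with at least 5 CPM in the highest group and an established symbol, up to 3 members per list with the smallest adjusted p, and Ptger1 to Ptger4, Ptgs2, Hpgd, Tnf, Il1b, Il6 and Alb. Further parts of the rule, for genes past the test in the uninjured arm, gave 0 genes. Which of those eligible to describe was decided with their values in view. The members and the 40 lists (700 entries, 684 distinct genes, 14 of them not tested) were chosen with earlier results of these data known, so list counts are descriptions. Alternatives were other scalings and filters, DESeq2 1.42.0, limma 3.58.1 on log2(FPKM + 1) and log2(FPKM + 0.1), the replicate number as a block and leaving out each library. Upper-quartile scaling and the fit without robust estimation were added after seeing the data. Promoter letters were searched in RefSeq sequences (GRCm38.p6), and the NF-kB consensus replaced a narrower form searched first. How the library denominator of the deposited FPKM was set is not stated, so tests on FPKM are no independent check on scaling.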

Additional observations from a re-analysis of the deposited data

Results flagged for a closer look

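The effect of dmPGE2 differed between injured and uninjured livers for the 2235 genes with a positive and the 2758 genes with a negative interaction described above, by the test of the difference itself (edgeR's quasi-likelihood test, Benjamini-Hochberg adjustment).

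In 5 of the 133 genes eligible for naming, 1 of the 4 pretreated libraries stood apart from the other 3 by Dixon's criterion, which chance meets in about 1 in 20 groups. Akap12, a protein kinase A anchor, had 19.6 CPM in the second pretreated library against 2.62 to 4.50 CPM in the rest, and its interaction of -4.19 ± 1.37 was -5.27 without that library. The call was lost in 12 of 24 alternatives (adjusted p up to 0.101). The stem and bile duct factor Sox9 had 5.001 CPM in the first pretreated library against 0.846 to 1.33 CPM, and -2.23 ± 0.75 became -3.17 without it. That call was lost in 13 of the 24 (adjusted p up to 0.115). Prtn3 had 10.95 CPM in the same library against 2.08 to 2.71 CPM, and 4.21 ± 1.07 became 3.28. The fourth pretreated library was low for Cd14 (32.7 against 43.2 to 45.0 CPM) and for the decoy receptor Il1r2 (7.95 against 11.2 to 11.8 CPM). The interactions of Cd14 and Il1r2 were -2.38 ± 0.31 and -2.80 ± 0.80 with it and -2.29 and -2.69 without it. The call of Il1r2 was lost in 1 alternative, without the second dmPGE2 library (adjusted p = 0.0531).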

How the results depend on the processing

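Of the 127 eligible genes with an interaction, 79 passed in every one of the 24 alternatives that gave them a value. Library totals took away 30 calls with the direction kept, more than any other setting, and also the call of Alas2, whose direction turned. With library totals 186 genes had a positive and 5189 a negative interaction, 604 were higher and 6802 lower in the injured arm, and 1 was higher and 1 lower in the uninjured arm. Directions that turned with library totals were those of Alas2 in the interaction (-0.093) and of Herpud1 (-0.13), Rpl11 (-0.16), Rpl6 (-0.12) and Rps15 (-0.18) in the injured arm. Calls between dmPGE2 and saline depended on the tool: 290 higher and 171 lower with no filter on low counts, 130 and 124 with DESeq2, 4 and 2 with limma on unfiltered log2(FPKM + 1), and 1 higher with limma on filtered values. That unfiltered fit gave 1365 positive interactions. The causes were not tested. Leaving out 1 library at a time gave 1435 to 2677 positive and 2026 to 2990 negative interactions, 2481 to 3576 higher and 3427 to 4263 lower genes in the injured arm, and 0 to 17 higher and 0 to 13 lower in the uninjured arm. The lowest number of positive interactions was that without GalN/LPS 3.

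The labels do not say whether replicate numbers mark a pairing of libraries, and correlations cannot exclude one. Deviations from the group means correlated at -0.49 to 0.19 between same-numbered libraries (18 pairs, 3 of them over 0.1) and at -0.27 to 0.33 between others. Between GalN/LPS and pretreated libraries of the same number they were -0.425, -0.486 and -0.243, and between those of different number -0.266 to 0.334. With the replicate number as a block, 1639 genes had a positive and 2157 a negative interaction, and 0 passed in the uninjured arm. Counts over the saline and the dmPGE2 libraries were few for Tnf (11 and 8), Ptgs2 (2 and 1) and Il6 (0 in both), and whether deeper libraries would change their calls was not tested.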

Other observations

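Most called genes were protein-coding, with 2131 positive, 2703 negative and 7936 uncalled interactions. Among processed pseudogenes 58 were positive, 10 negative and 429 uncalled, and reads of these copies cannot be told apart with certainty from those of their parent genes. Among lincRNA genes 15 were positive, 8 negative and 254 uncalled.

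Of 6 metallothionein and zinc transport genes 3 had a positive interaction (median 1.00), and with library totals 0 were positive and 1 negative. The zinc importer Slc39a4 was at 63.3, 72.3 and 69.3 CPM in saline and 64.6, 67.4 and 80.03 CPM in dmPGE2 livers. It was at 85.9, 108 and 107 CPM in GalN/LPS and 210.4, 180.3, 226 and 193 CPM in pretreated livers. The GalN/LPS livers were above all uninjured ones and the pretreated livers above all others, and its interaction of 0.97 ± 0.19 was 0.39 with library totals. Of 18 growth hormone and IGF genes 5 were positive and 1 negative (median 0.04), and with library totals 0 and 6. Over all genes 15.7% were positive and 19.3% negative, and with library totals 1.3% and 36.3%. Of 8 erythroid and platelet markers 1 was positive, Alas2, whose direction turned with library totals, where 0 were positive and 1 of the 8 was negative. The interleukin 1 receptor gene Il1r1, from the acute phase list, was at 32.1, 25.9 and 27.2 CPM in saline and 20.3, 20.8 and 16.8 CPM in dmPGE2 livers. It was at 29.9, 23.95 and 30.8 CPM in GalN/LPS and 44.3, 31.1, 40.8 and 51.3 CPM in pretreated livers. Its groups did not overlap in either arm and differed in opposite directions, but the uninjured change did not pass (adjusted p = 0.161). The interaction of Il1r1 was 1.13 ± 0.23 (adjusted p = 0.00227), and 0.52 with library totals (adjusted p = 0.113).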
